A study of Mus musculus with 16 samples.

Results

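Explants of the mouse superior cervical ganglion (SCG), the paired ganglion at the top of the sympathetic chain, were cultured alone (SCG, 3 libraries) or in wells that shared their medium with NIH/3T3 fibroblasts (SCG+MEF, 3 libraries), and the mRNA of the explants was sequenced. The comparison covered all 21684 protein-coding genes of the deposited table of 56941 genes, in both directions, and asked what a fibroblast that is not from the pancreas does to the ganglion. Of these genes, 15583 had normalized counts that summed to at least 10 over the 6 libraries and were tested. The other 6101 were not tested, 4315 of them at 0 in all 6 libraries. The series held 16 libraries in all. Both groups came from pups on postnatal days 1 to 4, with 8 to 13 explants in a well and about 70 hours of culture. SCG+MEF wells also held an insert seeded with 10000 NIH/3T3 cells (CRL-1658), an immortalized mouse embryonic fibroblast line that served as the control fibroblast for pancreatic stellate cells (PSCs). A further group of explants, SCG+PSC (4 libraries), had immortalized PSCs on the insert in place of the NIH/3T3 cells. No allele or drug was named for any of these groups. Both fibroblasts were 1 line each, and each well pooled its explants.

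A sympathetic ganglion holds noradrenergic neurons, which make noradrenaline from tyrosine through tyrosine hydroxylase (Th), together with satellite glia, Schwann cells, macrophages, endothelium, mural cells and fibroblasts. The cells on an insert reach it only through what they release into, or take out of, the medium. Among the receptors that read small molecules in medium is the aryl hydrocarbon receptor (AhR), which pairs with ARNT in the nucleus, binds DNA at sites with the core letters GCGTG and turns on a small battery of genes, among them the cytochrome P450 genes Cyp1a1 and Cyp1b1 and the feedback genes Ahrr and Tiparp.

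The 6 libraries held 33501312 to 39197230 reads on genes, recovered from the deposited values. In all 6 libraries, the 6 defining markers of sympathetic neurons, of glia, of macrophages, of endothelium, of fibroblasts and of mural cells were each at 10 normalized counts or more. Markers of mast cells summed to at most 18.2 normalized counts in a library and those of neutrophils to at most 175. Same-numbered libraries of the groups were taken as pairs. Genes that differ between the sexes also moved with the comparison. In all 3 pairs Xist was lower in SCG+MEF (12131, 7340.0 and 6137 against 13092, 9003 and 8204 normalized counts) and the sum of 4 Y-linked genes was higher (2669, 3771 and 4643 against 1532, 3293 and 1783). The part of this shift in any other gene was not tested.

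In ganglia with NIH/3T3 cells, 75 protein-coding genes were higher (0.481% of those tested) and 32 were lower (0.205%) than in ganglia alone, by the test of limma with the replicate number as block. A gene was called where its adjusted p was 0.05 or less and the log2 difference was 0.5 or more either way. Log2 fold changes are differences of log2(normalized count + 1), SCG+MEF minus SCG, so a value of 1 is a 2-fold difference. The largest rises were those of Mstn (3.07), Cyp1a1 (2.68), Mmp8 (2.39), Dpep1 (2.35), Calb2 (2.33), Sema3a (2.27) and Ahrr (2.04) among genes with a mean of at least 10, and the largest falls were those of Higd1b (-2.57), Chat (-1.98), Gucy2g (-1.82), Akr1c18 (-1.81) and Dmrta1 (-1.42). Of the 75 higher genes 33 changed by at least 1 on the log2 scale, and of the 32 lower genes 10 did, beside a median over all genes tested of 0.03. The values of the 2 groups did not overlap for 50 of the 75 and 16 of the 32, against 2.93% and 1.98% of all genes tested. These counts rest on the pairing. Without the block, 1 gene was higher (Cyp1a1, adjusted p = 0.0433) and 0 were lower, with 191 higher and 119 lower at an unadjusted p under 0.05 (906, or 5.81%, and 490, or 3.14%, with the block), and edgeR without the block gave the same counts of 1 and 0. With the block, edgeR called 73 of the 75 and all 32, and DESeq2 called 66 and 30. When each pair was left out in turn, 38 of the 75 and 13 of the 32 were called in all 3 fits.

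**Figure D1:**
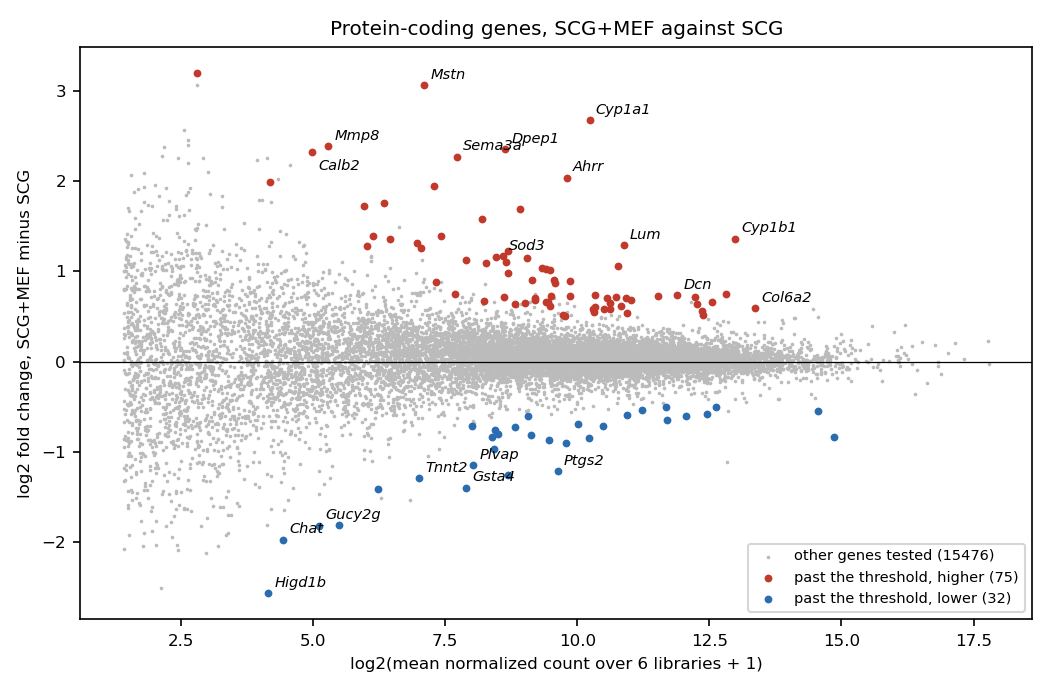
Each point is a protein-coding gene, with log2 of its mean normalized count + 1 over the 6 libraries across and the log2 fold change, SCG+MEF minus SCG, up. Red points are the 75 genes past the threshold and higher, blue points the 32 past it and lower, and grey points the other genes tested. The cloud centres on 0, with the median at 0.03, and the genes called with a mean of at least 10 reach from -2.57 (Higd1b) to 3.07 (Mstn). The unnamed red point at the top left is Cxcl3, whose height depends on the 1 added to each count because SCG held 1 read of it in all.

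Of the 12 genes of the AhR list tested, 4 were higher in SCG+MEF and 0 lower, beside 0.481% and 0.205% of all genes, and the list's median log2 fold change was 0.36 beside 0.03 over all genes. The 4 are the enzymes Cyp1a1 and Cyp1b1 and the feedback genes Ahrr and Tiparp, which the study itself named from these libraries, so their direction is not independent evidence. Cyp1a1, the P450 enzyme that oxidizes polycyclic aromatic molecules (ENSMUSG00000032315, chr9:57595211-57611107, plus strand, GRCm39 throughout), was at 301, 338 and 305 in SCG and 1505, 2850.2 and 1923 in SCG+MEF (log2 fold change 2.68 ± 0.13 (SE), adjusted p = 2.56e-08), in normalized counts of replicates 1, 2 and 3. All 3 SCG+MEF libraries lay above all 3 SCG libraries, and in the fits of these 6 libraries it was the only protein-coding gene that limma called both with and without the block. Ahrr, the repressor that competes with AhR for ARNT (ENSMUSG00000021575, chr13:74359237-74440462, minus strand), was at 383, 250.2 and 425 in SCG and 1597, 1146 and 1562 in SCG+MEF (log2 fold change 2.04 ± 0.11 (SE), adjusted p = 7.11e-08). Cyp1b1, the P450 of stromal and vascular cells (ENSMUSG00000024087, chr17:80008966-80022532, minus strand), was at 3335, 5496 and 4869.9 in SCG and 9694, 11102 and 14199 in SCG+MEF (log2 fold change 1.37 ± 0.11 (SE), adjusted p = 4.28e-06). Tiparp, an ADP-ribosyltransferase that dampens AhR (ENSMUSG00000034640, chr3:65435320-65463365, plus strand), was at 1206, 1116 and 1072 in SCG and 2115, 2281 and 2703 in SCG+MEF (log2 fold change 1.06 ± 0.11 (SE), adjusted p = 0.00011). None of these 4 genes overlapped between the groups, and each was called again without any 1 of the 3 pairs. Neither the receptor nor its partner was called. Ahr was at 1400.3, 1674 and 1475 in SCG and 1626, 1531 and 1589 in SCG+MEF (log2 fold change 0.06, adjusted p = 0.917) and Arnt at 2299, 2911 and 2284 in SCG and 2656, 2677 and 2519 in SCG+MEF (0.08, adjusted p = 0.895). Nqo1, a quinone reductase shared with the NRF2 pathway, was at 556, 1435 and 1339 in SCG and 749, 1163 and 912 in SCG+MEF (-0.14, adjusted p = 0.869), and its groups overlapped. Lpcat2, an acyltransferase of the list, had a log2 fold change of 0.37 with adjusted p = 0.197. Cyp1a2 was at 0 in SCG replicates 1 and 3, 1.90 in replicate 2 and 6.08, 6.13 and 7.10 in SCG+MEF, too low for a fold change to be given.

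The stretches of DNA upstream of these genes were searched for GCGTG on both strands, because that core is the letters AhR and ARNT read. RefSeq starts could be placed on GRCm39 by exact match for 12058 of the 15583 genes tested. In the 1500 bases before the start, Cyp1a1 held 12 matches (as many in 0.0746% of the promoters placed), Cyp1b1 10 (0.241%), and Ahrr and Tiparp 6 each (3.56%), beside a median of 1. Of other genes of the AhR list, Cyp1a2 and Lpcat2 held 2 each (47.5%) and Nqo1 1 (75.5%). Of other large rises, Dpep1 and Sema3a held 2 each (47.5%) and Mstn 0. Over the whole set of called genes the core was not concentrated near the start. The 250 bases before it held a match in 45% of the 60 higher genes placed and 36.4% of the 22 lower genes placed, against 43.1% of all. Over the 1500 bases the mean was 2.12 matches in the higher genes, 1.14 in the lower and 1.8 in all. A window of 250 bases with 3 or more was found in 18.3%, 4.55% and 12.3%. The windows below are the 250 bases, free of exons annotated in GENCODE M39, that hold the most matches (capitals) within those 1500 bases. They are read 5′ to 3′ on the strand of the gene and shown for the 3 genes whose window holds at least 3. The window of Cyp1a1 is chr9:57603594-57603843 (plus strand, from 1302 to 1053 bases before the RefSeq start and inside an intron of a longer annotated transcript), that of Ahrr is chr13:74440463-74440712 (minus strand, 262 to 13 bases before) and that of Cyp1b1 is chr17:80023114-80023363 (minus strand, 873 to 624 bases before). Matches that overlap on the 2 strands (CACGCGTG in Cyp1b1) were counted as 2.
Cyp1a1: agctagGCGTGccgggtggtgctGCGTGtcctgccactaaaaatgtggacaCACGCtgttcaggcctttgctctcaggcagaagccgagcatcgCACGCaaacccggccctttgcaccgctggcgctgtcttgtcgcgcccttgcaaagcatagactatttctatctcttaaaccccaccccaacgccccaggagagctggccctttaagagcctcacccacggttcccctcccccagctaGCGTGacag
Ahrr: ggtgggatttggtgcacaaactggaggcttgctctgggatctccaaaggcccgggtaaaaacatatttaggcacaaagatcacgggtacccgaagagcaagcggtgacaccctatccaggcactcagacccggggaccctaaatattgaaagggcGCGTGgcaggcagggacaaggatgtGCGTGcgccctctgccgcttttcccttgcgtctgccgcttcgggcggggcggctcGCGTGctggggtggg
Cyp1b1: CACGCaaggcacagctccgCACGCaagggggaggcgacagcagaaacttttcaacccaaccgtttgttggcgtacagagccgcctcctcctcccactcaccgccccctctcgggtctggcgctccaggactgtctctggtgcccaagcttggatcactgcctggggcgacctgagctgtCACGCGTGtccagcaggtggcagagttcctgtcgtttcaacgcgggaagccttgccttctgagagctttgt
The Cyp1a1 window holds 5 matches, the Cyp1b1 window 4 and the Ahrr window 3. Tiparp had 0 in its densest window free of exons. A match is a run of letters and not a measured site of binding.

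The other large rises included secreted ligands, surface proteins and enzymes. Mstn (myostatin), a secreted TGF-beta family ligand known for limiting muscle growth (ENSMUSG00000026100, chr1:53100799-53107240, plus strand), was at 41.5, 35.2 and 12.3 in SCG and 354, 236 and 142 in SCG+MEF (log2 fold change 3.07 ± 0.23 (SE), adjusted p = 3.72e-06). Every SCG+MEF library stood above every SCG library. It was the only 1 of 23 genes of the TGF-beta and BMP list to be called. The list does not hold Gdf5, a ligand of the same family that was also higher. Dpep1, a membrane dipeptidase that cleaves leukotriene D4 (ENSMUSG00000019278, chr8:123908418-123928560, plus strand), was at 115, 108 and 163 in SCG and 634, 539.6 and 813 in SCG+MEF (log2 fold change 2.35 ± 0.14 (SE), adjusted p = 1.27e-07). Sema3a, the secreted semaphorin that repels sympathetic and sensory axons (ENSMUSG00000028883, chr5:13175288-13653578, plus strand), was at 55.7, 101 and 51.2 in SCG and 566, 247 and 241 in SCG+MEF (log2 fold change 2.27 ± 0.27 (SE), adjusted p = 0.000598), with replicate 1 highest among the SCG+MEF libraries. It was the only called gene of 57 axon guidance genes, whose median was 0.04. Pcdh8, a protocadherin of synaptic membranes, was at 73.9, 35.2 and 74.8 in SCG and 186, 154 and 403 in SCG+MEF (log2 fold change 1.94 ± 0.22 (SE), adjusted p = 0.000425). Mmp8, a collagenase best known from neutrophils (ENSMUSG00000005800, chr9:7558457-7568487, plus strand), was at 15.2, 8.56 and 11.3 in SCG and 62.9, 74.5 and 55.8 in SCG+MEF (log2 fold change 2.39 ± 0.34 (SE), adjusted p = 0.00222). The groups of these genes did not overlap. Of the 5 other neutrophil markers listed, S100a8, S100a9, Ly6g and Retnlg were at 4.05 normalized counts or less in every SCG and SCG+MEF library, and Csf3r was at 118, 85.6 and 78.9 in SCG and 112, 53.4 and 102 in SCG+MEF, with overlapping groups (adjusted p = 0.937). Tnfsf8, the ligand of CD30, was at 21.3, 45.7 and 19.5 in SCG and 72.0, 83.2 and 125 in SCG+MEF (log2 fold change 1.73 ± 0.32 (SE), adjusted p = 0.0198), and Nppc, the precursor of C-type natriuretic peptide, at 11.1, 5.71 and 3.07 in SCG and 35.5, 28.9 and 18.2 in SCG+MEF (log2 fold change 1.99 ± 0.42 (SE), adjusted p = 0.0493). Nppc lost its call when any 1 pair was left out. Prelp, a leucine-rich matrix protein, was at 70.9, 317 and 367 in SCG and 406, 661 and 1062 in SCG+MEF (log2 fold change 1.70 ± 0.20 (SE), adjusted p = 0.000481). For each of these 3 genes the groups did not overlap, and for Prelp SCG replicate 1 was far below the other SCG libraries.

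**Figure D2:**
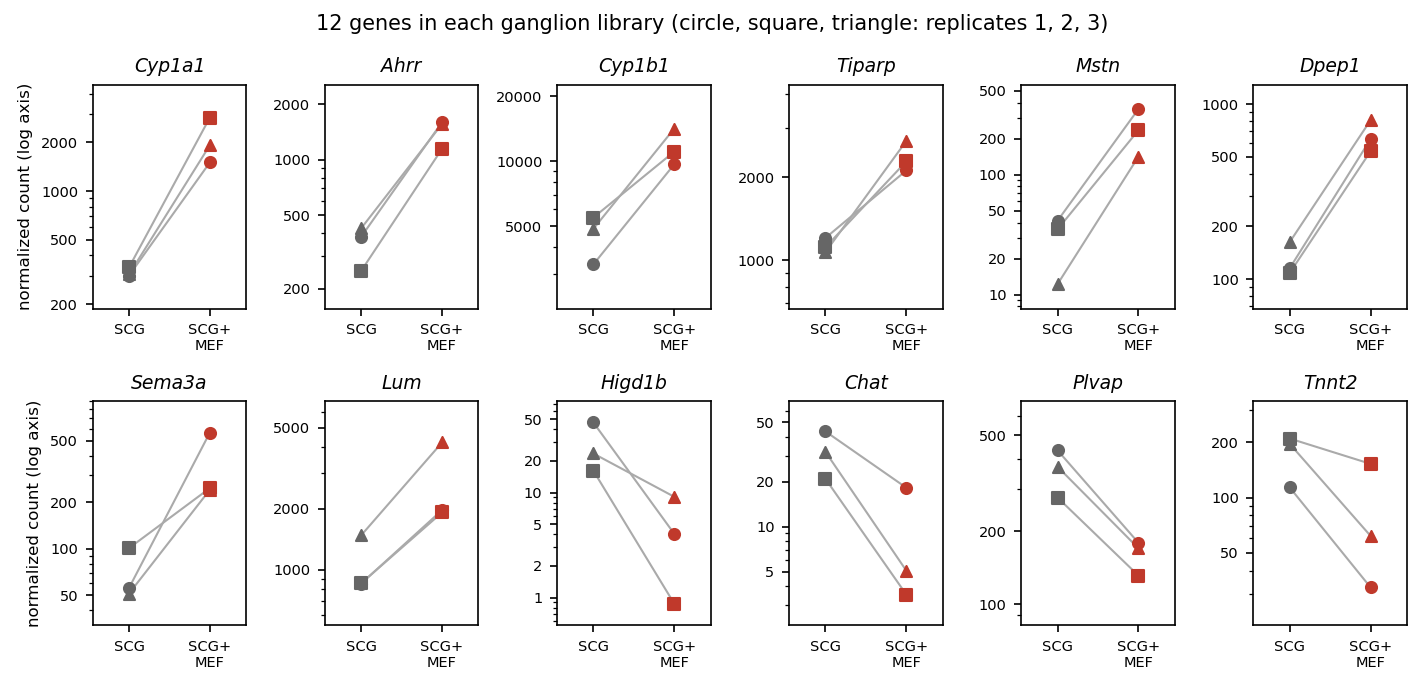
Normalized counts (log axis, a scale of its own for each gene) of 12 genes in the 3 SCG libraries (grey) and the 3 SCG+MEF libraries (red), with a line joining same-numbered libraries. All lines of the first 8 genes go up and all lines of Higd1b, Chat, Plvap and Tnnt2 go down. Cyp1a1 goes from 301, 338 and 305 to 1505, 2850.2 and 1923.

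Some fibroblast genes were higher and some mural genes lower. Of 17 fibroblast markers tested, 3 were higher and 0 lower, and of 12 mural markers 0 were higher and 2 lower, beside the 0.481% and 0.205% of all genes. The medians were 0.22 and -0.23. Lum (lumican), a keratan sulfate proteoglycan that spaces collagen fibrils (ENSMUSG00000036446, chr10:97400990-97408577, plus strand), was at 856, 858 and 1477 in SCG and 1966, 1914 and 4228 in SCG+MEF (log2 fold change 1.29 ± 0.10 (SE), adjusted p = 4.28e-06). Dcn (decorin), its close relative (ENSMUSG00000019929, chr10:97315275-97358155, plus strand), was at 2544, 2856 and 3012 in SCG and 3913, 4224 and 6170.0 in SCG+MEF (log2 fold change 0.74 ± 0.10 (SE), adjusted p = 0.00151). Neither overlapped between groups. Pdgfra, the PDGF receptor that marks fibroblasts, was at 805, 1826 and 958 in SCG and 1564, 2047 and 1488 in SCG+MEF (log2 fold change 0.59 ± 0.12 (SE), adjusted p = 0.0493), with SCG replicate 2 above the SCG+MEF libraries 1 and 3. The summed level of the 6 defining fibroblast markers was 99658 to 215917 in SCG and 154223 to 232437 in SCG+MEF, so that the ranges overlapped. Among mural genes, Notch3, the Notch receptor of pericytes and smooth muscle, was at 6571, 5420.4 and 8155 in SCG and 3690.4, 3880.2 and 6075 in SCG+MEF (log2 fold change -0.58 ± 0.10 (SE), adjusted p = 0.00895), and Cspg4 (NG2), their surface proteoglycan, at 5829.9, 7104 and 9526 in SCG and 4772, 5118 and 5635 in SCG+MEF (log2 fold change -0.51 ± 0.10 (SE), adjusted p = 0.0272). Rgs5, a pericyte regulator of G-protein signaling, was at 16421, 3301 and 10701 in SCG and 3202, 2343 and 7682 in SCG+MEF (log2 fold change -1.11, adjusted p = 0.0543) and just missed the threshold. Higd1b, a mitochondrial gene that pericytes express strongly (ENSMUSG00000020928, chr11:102726404-102735661, plus strand), was at 46.6, 16.2 and 23.6 in SCG and 4.06, 0.876 and 9.12 in SCG+MEF (log2 fold change -2.57 ± 0.51 (SE), adjusted p = 0.0328). It was low everywhere and called in 1 of the 3 fits that left out a pair. Acta2, smooth muscle actin, was at 3179, 25068 and 17019.7 in SCG and 6346, 20857 and 16127 in SCG+MEF (log2 fold change 0.22, adjusted p = 0.802). The summed level of the 6 mural markers was 32102 to 45614 in SCG and 18056 to 35730 in SCG+MEF. In these bulk libraries, fewer cells of a type and less RNA per cell cannot be told apart.

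Matrix genes were called in both directions. Of the 27 collagen chains listed and tested, 1 was higher and 1 lower, beside 0.481% and 0.205% of all genes, with a median of 0.03. Col10a1, described further on, was also lower and is not on that list. Col6a2, a chain of the microfibrillar collagen VI (ENSMUSG00000020241, chr10:76429660-76459549, minus strand), was at 8546, 7664 and 9073 in SCG and 14108, 11184 and 13027 in SCG+MEF (log2 fold change 0.60 ± 0.09 (SE), adjusted p = 0.00343), and Col6a1, the chain it assembles with, at 14114, 16083 and 13801 in SCG and 23608, 19319.7 and 18887 in SCG+MEF (log2 fold change 0.49 ± 0.10 (SE), adjusted p = 0.0465, under the fold threshold). Col25a1, a transmembrane collagen of neurons (ENSMUSG00000058897, chr3:129925150-130393532, plus strand), was at 653, 631 and 461 in SCG and 283, 205 and 236 in SCG+MEF (log2 fold change -1.26 ± 0.14 (SE), adjusted p = 0.000425). The fibrillar chains Col1a1 (0.22 ± 0.14, adjusted p = 0.754) and Col3a1 (0.41 ± 0.11, adjusted p = 0.19) did not pass. Of the 31 matrix proteases and inhibitors listed and tested, 3 were higher and 1 lower, beside 0.481% and 0.205% of all genes. Their median was -0.01. That list does not hold Mmp8, which was higher as given above. Plau (urokinase), the activator of plasminogen, was at 363, 713 and 508 in SCG and 634, 1126 and 739 in SCG+MEF (log2 fold change 0.67 ± 0.11 (SE), adjusted p = 0.00895). Mmp12, the macrophage elastase, was at 1071, 856 and 281 in SCG and 1361, 1366 and 625 in SCG+MEF (log2 fold change 0.72 ± 0.13 (SE), adjusted p = 0.0198), with SCG+MEF replicate 3 below SCG replicates 1 and 2, and Adamts15, an aggrecanase, was at 414, 405 and 367 in SCG and 724, 512 and 649.7 in SCG+MEF (log2 fold change 0.65 ± 0.13 (SE), adjusted p = 0.0313). Timp1, an inhibitor of the MMPs, was at 2693, 5489 and 3967 in SCG and 2091, 3951 and 1829 in SCG+MEF (log2 fold change -0.65 ± 0.12 (SE), adjusted p = 0.0202). It fell in all 3 pairs while the groups overlapped. Other matrix and growth factor binding genes among the 75, named after their values were seen, were Igfbp4 (0.75), Gpc3 (0.72), Fmod (0.72), Sfrp4 (1.09), Svep1 (1.04) and Efemp1 (1.31).

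Calls among chemokine and complement genes were all upward, and the 1 call in the IL-1, TNF and NF-kB list was downward. Of 36 chemokines and receptors tested, 3 were higher and 0 lower, beside 0.481% and 0.205% of all genes. The median log2 fold change was 0.45 (0.20 with a pseudocount of 8). Without overlap between groups, 7 were higher and 1 lower, against 2.93% and 1.98% of all genes. Pf4 (CXCL4), a chemokine of platelets and macrophages (ENSMUSG00000029373, chr5:90918479-90922110, plus strand), was at 59.7, 24.7 and 24.6 in SCG and 159, 145 and 64.9 in SCG+MEF (log2 fold change 1.76 ± 0.27 (SE), adjusted p = 0.00531). Ccr1, the receptor for several CC chemokines, was at 34.4, 32.3 and 44.1 in SCG and 92.3, 81.5 and 98.3 in SCG+MEF (log2 fold change 1.28 ± 0.24 (SE), adjusted p = 0.0255). Cxcl3, a neutrophil attractant, had 1 read in SCG replicate 1 and 0 in the other SCG libraries, and was at 18.2, 10.5 and 6.08 normalized counts in SCG+MEF (adjusted p = 0.0417), so no fold is given. Ccl6 was at 84.0, 115 and 54.3 in SCG and 142, 182 and 158 in SCG+MEF (log2 fold change 0.98, adjusted p = 0.0543) and did not pass. Of 15 complement genes, 2 were higher and 0 lower, beside 0.481% and 0.205% of all genes. Their median was 0.38 (0.25 with a pseudocount of 8). At an unadjusted p under 0.05 in the same fit, 8 were higher and 0 lower, beside 5.81% and 3.14%. C1s1, a protease of the C1 complex, was at 891, 1059.7 and 1119.9 in SCG and 1472, 1286 and 1955 in SCG+MEF (log2 fold change 0.60 ± 0.11 (SE), adjusted p = 0.0202), and Serping1, the C1 inhibitor, at 4828, 5274 and 3239 in SCG and 6429, 6244 and 5991 in SCG+MEF (log2 fold change 0.51 ± 0.11 (SE), adjusted p = 0.0493). Il4ra, the shared receptor chain for IL-4 and IL-13, was at 4092, 3504 and 3271 in SCG and 6943, 6245 and 4758 in SCG+MEF (log2 fold change 0.71 ± 0.09 (SE), adjusted p = 0.000965), with no overlap between groups. Of 20 genes of IL-1, TNF and NF-kB, 0 were higher and 1, Ptgs2, was lower, beside 0.481% and 0.205% of all genes. At an unadjusted p under 0.05 the counts were 5 and 1, beside 5.81% and 3.14%, and the list's median was 0.13. None of 34 macrophage markers was called in either direction by limma with the block, and their median was 0.07. At an unadjusted p under 0.05, 7 were higher and 0 lower, beside 5.81% and 3.14% of all genes. Mrc1, the mannose receptor CD206, was at 149, 283 and 163 in SCG and 346, 361 and 266 in SCG+MEF (log2 fold change 0.75, adjusted p = 0.0624), under the threshold in limma. The summed level of the 6 macrophage markers was 3885 to 6006 in SCG and 4182 to 6091 in SCG+MEF.

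The genes that define the neurons were not among those called. None of 20 noradrenergic genes was called by limma with the block, nor any of 17 pan-neuronal or 25 synaptic vesicle and release genes. At an unadjusted p under 0.05, 6 noradrenergic genes were higher and 1 lower, beside 5.81% and 3.14% of all genes. The medians of the 3 lists were 0.15, 0.14 and 0.15. Pair 2 carried these medians. In pairs 1, 2 and 3 they were 0.02, 0.51 and 0.01 for the noradrenergic list, -0.02, 0.42 and -0.10 for the pan-neuronal list and 0.07, 0.37 and -0.10 for the synaptic list. Th was at 18795, 8836 and 29967 in SCG and 27217, 19167 and 31729 in SCG+MEF (log2 fold change 0.58, adjusted p = 0.1), with replicate 2 lowest in both groups, and Dbh, which converts dopamine to noradrenaline, at 37233, 21398 and 45933 in SCG and 38785, 32369 and 42962 in SCG+MEF (0.19, adjusted p = 0.757). Single genes known for roles in neurons did move, though these bulk libraries do not show which cells carried their mRNA. Ntm (neurotrimin), a GPI-anchored adhesion protein of axons (ENSMUSG00000059974, chr9:28906045-29874437, minus strand), was at 258, 355 and 138 in SCG and 516, 794 and 399 in SCG+MEF (log2 fold change 1.23 ± 0.14 (SE), adjusted p = 0.000425), and Negr1, of the same IgLON family (ENSMUSG00000040037, chr3:156267431-157022097, plus strand), at 587, 552 and 796 in SCG and 1350.5, 886 and 1374 in SCG+MEF (log2 fold change 0.89 ± 0.12 (SE), adjusted p = 0.00113). They were the only 2 of 18 neural immunoglobulin adhesion genes called. Calb2 (calretinin), a calcium buffer, was at 17.2, 10.5 and 4.10 in SCG and 55.8, 52.6 and 43.6 in SCG+MEF (log2 fold change 2.33 ± 0.38 (SE), adjusted p = 0.00859), and Kcnd3, a channel of the A-type potassium current, at 233, 212 and 376 in SCG and 507, 352 and 803 in SCG+MEF (log2 fold change 0.98 ± 0.13 (SE), adjusted p = 0.00151), the only call among 34 voltage-gated channel genes. Chat, which makes acetylcholine and is carried by the few cholinergic neurons of the ganglion (ENSMUSG00000021919, chr14:32129369-32187946, minus strand), was at 43.5, 20.9 and 31.8 in SCG and 18.2, 3.50 and 5.07 in SCG+MEF (log2 fold change -1.98 ± 0.42 (SE), adjusted p = 0.0493). Its groups did not overlap, but its levels were low and DESeq2 with the block did not call it. None of 10 acetylcholine receptor genes was called by limma with the block. At an unadjusted p under 0.05, 3 of them were higher and 0 lower, beside 5.81% and 3.14% of all genes. Among 35 axon injury genes only Plau was called. Atf3, the injury-induced transcription factor, was at 12661, 15239 and 11437 in SCG and 18144, 17356 and 17074 in SCG+MEF (log2 fold change 0.43, adjusted p = 0.0756), and the neuropeptide gene Vip at 142, 89.4 and 84.0 in SCG and 60.8, 74.5 and 9.12 in SCG+MEF (-1.51, adjusted p = 0.117).

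Glial and endothelial genes each moved in both directions. Among 27 glial genes, Gldn (gliomedin), a Schwann cell protein that gathers sodium channels at nodes, was at 5588, 4749 and 3646 in SCG and 9046, 6942 and 6075 in SCG+MEF (log2 fold change 0.66 ± 0.09 (SE), adjusted p = 0.00122). Kcnj10 (Kir4.1), the potassium channel of satellite glia (ENSMUSG00000044708, chr1:172168765-172201652, plus strand), was at 1778, 1974 and 1569.7 in SCG and 1256, 1120.3 and 888 in SCG+MEF (log2 fold change -0.71 ± 0.10 (SE), adjusted p = 0.00218), and Fabp7, a lipid carrier of the same cells, at 3662, 5125 and 2748 in SCG and 2627, 3436 and 2003 in SCG+MEF (log2 fold change -0.50 ± 0.09 (SE), adjusted p = 0.0121). No SCG+MEF library reached the lowest SCG library for Kcnj10, while Fabp7 overlapped. The list's median was 0.03. Of 26 endothelial genes 2 were higher and 1 lower, beside 0.481% and 0.205% of all genes. At an unadjusted p under 0.05 in the same fit, 12 were higher and 4 lower, beside 5.81% and 3.14%. The median of the endothelial list was 0.52. It was -0.10 in pair 1, 0.60 in pair 2 and 0.73 in pair 3, so that pairs 2 and 3 carried it. Egfl7, a secreted endothelial factor, was at 241, 244 and 208 in SCG and 436, 360.0 and 314 in SCG+MEF (log2 fold change 0.67 ± 0.14 (SE), adjusted p = 0.0441), and Adgrf5, an adhesion receptor, at 272, 478 and 311 in SCG and 463, 660.4 and 508 in SCG+MEF (log2 fold change 0.64 ± 0.12 (SE), adjusted p = 0.0272). Egfl7 was called in none of the fits that left out a pair. Plvap, the diaphragm protein of fenestrated capillaries (ENSMUSG00000034845, chr8:71948674-71964506, minus strand), was at 432, 276 and 369.9 in SCG and 179, 131 and 170.3 in SCG+MEF (log2 fold change -1.15 ± 0.15 (SE), adjusted p = 0.000965), with no overlap. The endothelial markers Cdh5 (0.43 ± 0.11, adjusted p = 0.124) and Pecam1 (0.72 ± 0.25, adjusted p = 0.392) did not pass. The summed level of the 6 endothelial markers was 3455 to 4342 in SCG and 3555 to 4431 in SCG+MEF.

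Several other genes fell. Ptgs2 (COX-2), which makes prostaglandin H2 (ENSMUSG00000032487, chr1:149975194-149983978, plus strand), was at 735, 1302 and 1284 in SCG and 383, 653 and 388 in SCG+MEF (log2 fold change -1.22 ± 0.14 (SE), adjusted p = 0.000425), and Slco2a1, a prostaglandin transporter, at 299, 591 and 470.3 in SCG and 222, 319.7 and 153 in SCG+MEF (log2 fold change -0.97 ± 0.18 (SE), adjusted p = 0.0218). Akr1c18, a progesterone-metabolizing reductase, was at 142, 44.7 and 27.7 in SCG and 23.3, 8.76 and 17.2 in SCG+MEF (log2 fold change -1.81 ± 0.38 (SE), adjusted p = 0.0441). Gsta4, a glutathione transferase that clears the lipid aldehyde 4-HNE (ENSMUSG00000032348, chr9:78090056-78117763, plus strand), was at 114, 480.4 and 431 in SCG and 48.7, 227 and 115 in SCG+MEF (log2 fold change -1.40 ± 0.18 (SE), adjusted p = 0.00122), below its SCG partner in every pair although the levels differed between pairs. Sod3, the extracellular superoxide dismutase (ENSMUSG00000072941, chr5:52521070-52528883, plus strand), went the other way, at 291, 231 and 192 in SCG and 579, 477 and 532 in SCG+MEF (log2 fold change 1.17 ± 0.14 (SE), adjusted p = 0.00053), and these were the only 2 of 12 genes of the NRF2 list called. Gucy2g, a membrane guanylyl cyclase, was at 72.9, 34.2 and 51.2 in SCG and 13.2, 8.76 and 21.3 in SCG+MEF (log2 fold change -1.82 ± 0.35 (SE), adjusted p = 0.0255). Cdkn2b (p15), a cyclin-dependent kinase inhibitor, was at 1060.1, 1425 and 954 in SCG and 667, 685 and 482 in SCG+MEF (log2 fold change -0.90 ± 0.11 (SE), adjusted p = 0.00071), and Dmrta1, a transcription factor, at 137, 127 and 52.3 in SCG and 53.7, 58.7 and 14.2 in SCG+MEF (log2 fold change -1.42 ± 0.25 (SE), adjusted p = 0.0162). Tnnt2, the cardiac form of troponin T, was at 113, 209 and 196 in SCG and 32.4, 152 and 61.8 in SCG+MEF (log2 fold change -1.29 ± 0.24 (SE), adjusted p = 0.0249). Named after their values were seen, the hypoxia factor Epas1 (-0.59 ± 0.10), the matrix phosphoprotein Spp1 (-0.55 ± 0.10) and the collagen chain Col10a1 (-0.84 ± 0.12) were also lower. Among the 75 higher genes 2 lie on the Y chromosome, Eif2s3y (1.01, adjusted p = 0.0284) and Ddx3y (0.74, adjusted p = 0.0339), and go with the shift in sex-linked genes given above.

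Many pathway lists held no called gene in either direction with limma and the block. These were DNA replication (30 genes, median 0.09), mitosis (31, 0.22), interferon-stimulated genes (38, 0.10), MHC class I presentation (17, 0.12), cytosolic ribosomal proteins (77, -0.07), the nuclear and mitochondrial respiratory chain genes (83 and 13, -0.04 and 0.12), hypoxia and glycolysis (33, 0.02), cholesterol synthesis (23, 0.13), ATF4 targets (18, -0.06), p53 targets (14, -0.05), IL-6 family and STAT3 (22, -0.04), LXR targets (8, 0.06), neurotrophins and GDNF family (17, 0.12), YAP and SRF targets (14, 0.01) and early response genes (18, -0.03). Of the 31 mitosis genes, 19 were higher and 0 lower in all 3 pairs, beside 17.6% and 10.2% of all genes, and 13 were higher at an unadjusted p under 0.05 beside 5.81%. The 15 genes that the study named for ganglia in either coculture held 13 called and higher. That list was chosen on these libraries and is not independent evidence.

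**Figure D3:**
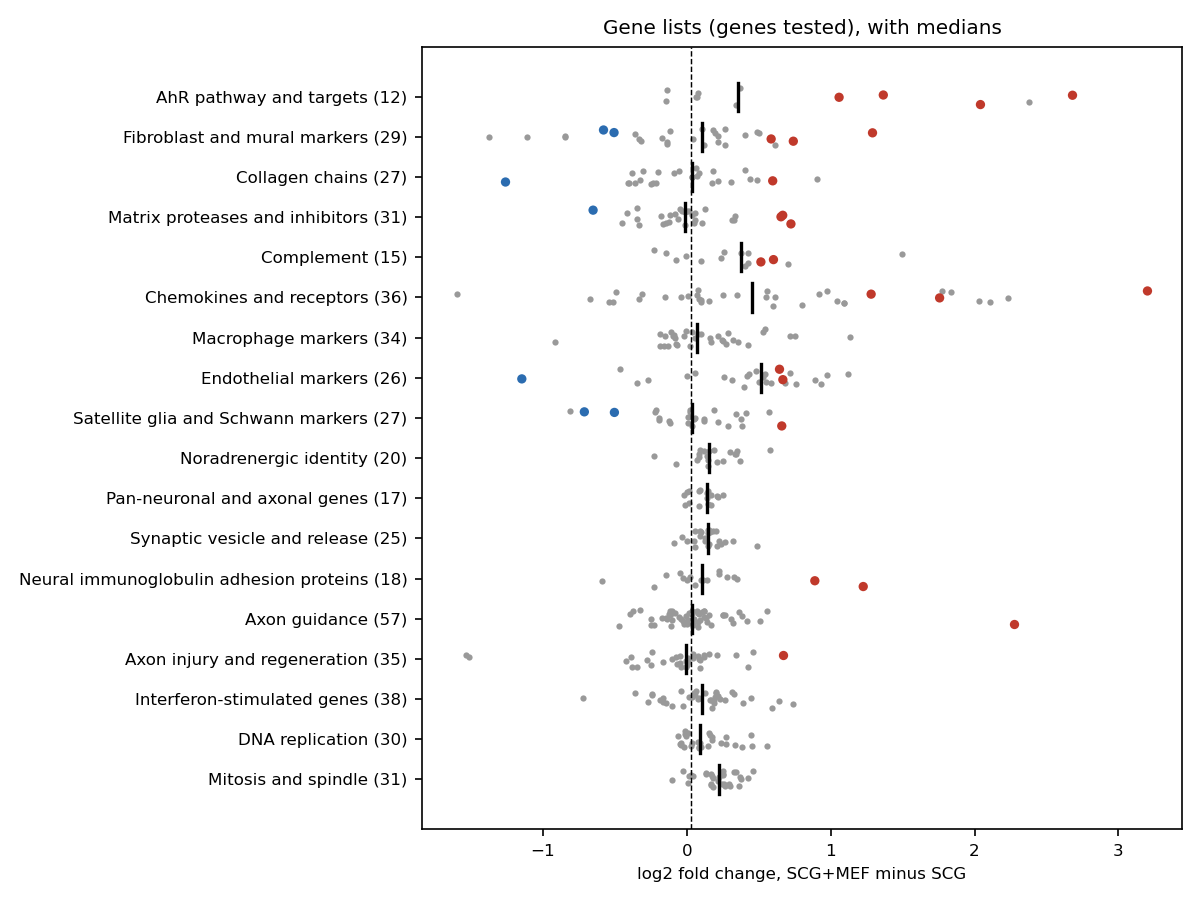
Log2 fold changes, SCG+MEF minus SCG, of the tested members of 18 gene lists (number tested in brackets). Red and blue points passed the threshold as higher and lower, grey points did not, black bars are list medians and the dashed line is the median of all genes tested, 0.03. Red points sit in 11 of the lists shown, with 4 in the AhR list, while the noradrenergic, interferon and cell cycle lists hold grey points only.

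Ganglia with PSCs were set beside ganglia with NIH/3T3 cells to see which of these changes differ between the fibroblast lines. In a model of the 9 libraries numbered 1 to 3, limma without a block called 0 protein-coding genes in either direction (201 higher and 287 lower in SCG+MEF at an unadjusted p under 0.05). That fit was the main test of this comparison, because the paper's text ties no SCG+PSC library to a shared batch. It ties no SCG or SCG+MEF library to a batch either, although the replicate number was the block in the comparison with SCG. For SCG+MEF against SCG+PSC, the fit with the replicate number as block was an alternative, and only with it were genes called. With that block, 29 were higher (0.182% of 15908 tested) and 152 lower (0.955%) in SCG+MEF than in SCG+PSC. By that blocked test, 9 of the 75 genes above were higher in SCG+MEF than in SCG+PSC and 8 of the 32 were lower. The 75 and 32 had been picked on the same SCG+MEF libraries, so these directions are not independent of that choice. The 9 were Gdf5, Rbm24, Aldh1a2, Dpep1, Klk4, Zfp185, Abcb4, Lum and Abca8b. Gdf5, a BMP family ligand of joint formation (ENSMUSG00000038259, chr2:155782943-155787287, minus strand), was at 93.1, 66.6 and 65.6 in SCG and 276, 156 and 132 in SCG+MEF and 71.0, 45.6, 38.5 and 54.5 in the 4 SCG+PSC libraries (SCG+MEF minus SCG+PSC 1.81 ± 0.20 (SE), adjusted p = 0.00827). Rbm24, an RNA-binding protein, was at 176, 63.7 and 215 in SCG and 491, 243 and 558 in SCG+MEF and 174, 102, 135 and 153 in SCG+PSC (1.59 ± 0.21 (SE), adjusted p = 0.0168). Aldh1a2, which makes retinoic acid, was at 1261, 1167 and 1130.1 in SCG and 2807, 1363 and 1698 in SCG+MEF and 1236, 875, 646 and 1023 in SCG+PSC (1.07 ± 0.16 (SE), adjusted p = 0.0219). For all 3, every SCG+PSC library was below the SCG+MEF libraries. Dpep1 was at 378, 255, 344 and 345 in SCG+PSC (1.02 ± 0.14 (SE), adjusted p = 0.0169) and Lum at 1721, 1158, 2097 and 2221 (0.64 ± 0.13 (SE), adjusted p = 0.0443). These 5 genes, like the 8 that follow, were chosen for the direct test.

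The 8 lower genes were Tnnt2, Sostdc1, Sfrp1, B4galnt3, Pgf, Kcnj10, Trabd2b and Fabp7. Kcnj10 was at 1740.1, 1986, 1629 and 1612 in SCG+PSC (SCG+MEF minus SCG+PSC -0.72 ± 0.09 (SE), adjusted p = 0.0162) and Fabp7 at 3698, 4799, 3293 and 3975 (-0.56 ± 0.08 (SE), adjusted p = 0.0219). Against SCG alone the log2 differences of these glial genes with PSCs were 0.01 and 0.06. Pgf, placental growth factor, was at 686, 1219 and 829.9 in SCG and 409, 637 and 439.9 in SCG+MEF and 736, 1097, 705 and 693 in SCG+PSC (-0.77 ± 0.10 (SE), adjusted p = 0.0162). Sostdc1, a secreted BMP and Wnt antagonist, was at 425, 526 and 337 in SCG and 227, 294 and 196 in SCG+MEF and 465, 484, 457 and 480.1 in SCG+PSC (-0.99 ± 0.13 (SE), adjusted p = 0.0168), and Sfrp1, a secreted Wnt antagonist, at 3048, 8876 and 3119 in SCG and 1652, 6805 and 2138 in SCG+MEF and 3928, 8605, 5077 and 5221 (-0.95 ± 0.15 (SE), adjusted p = 0.0219). Tnnt2 was at 111, 276, 165 and 131 in SCG+PSC (-1.33 ± 0.24 (SE), adjusted p = 0.0321).

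For the AhR targets and for Mstn, Sema3a, Ntm, Sod3, Il4ra and Ptgs2 no difference between the 2 fibroblast lines passed the blocked test, which does not show that the lines act alike. Cyp1a1 was at 2128, 3807, 2779 and 2807 in SCG+PSC, a difference of -0.48 (95% interval -0.76 to -0.21), adjusted p = 0.111. Ahrr differed by 0.50 (95% interval 0.27 to 0.74), adjusted p = 0.0539, Cyp1b1 by 0.51 (95% interval 0.22 to 0.81) and Tiparp by 0.31 (95% interval 0.08 to 0.54). Mstn was at 325, 172, 189 and 212 in SCG+PSC and differed by 0.05 (95% interval -0.50 to 0.61). Sema3a differed by 0.66 (95% interval -0.07 to 1.40), Ntm by -0.61 (95% interval -0.97 to -0.24), Sod3 by 0.12 (95% interval -0.23 to 0.48), Il4ra by 0.02 (95% interval -0.19 to 0.22) and Ptgs2 by -0.04 (95% interval -0.37 to 0.30). Ccl6 went with the PSCs, at 682, 402, 339.7 and 453 in SCG+PSC (-1.50 ± 0.24 (SE), adjusted p = 0.0227).

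Among the lists, those of DNA replication and mitosis held the most genes that differed between the lines in the blocked test. Against SCG alone, with the SCG libraries shared by both comparisons, the medians with NIH/3T3 cells and with PSCs were 0.09 and 0.72 for DNA replication, 0.22 and 1.07 for mitosis, and 0.10 and 1.73 for interferon-stimulated genes. In the blocked direct test 13 of 30 DNA replication genes, 18 of 31 mitosis genes and 3 of 38 interferon-stimulated genes were lower in SCG+MEF, beside 0.955% of all genes, and 0 of each list were called without the block. The interferon median with PSCs rested on SCG+PSC replicates 1 and 2, where the list stood 1.51 and 3.12 above the SCG mean, while replicates 3 and 4 were at 0.38 and 0.41, beside 0.27 in SCG replicate 3. For the AhR list the 2 medians were 0.36 and 0.43, and 0 of 12 genes were called in the direct test.

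**Figure D4:**
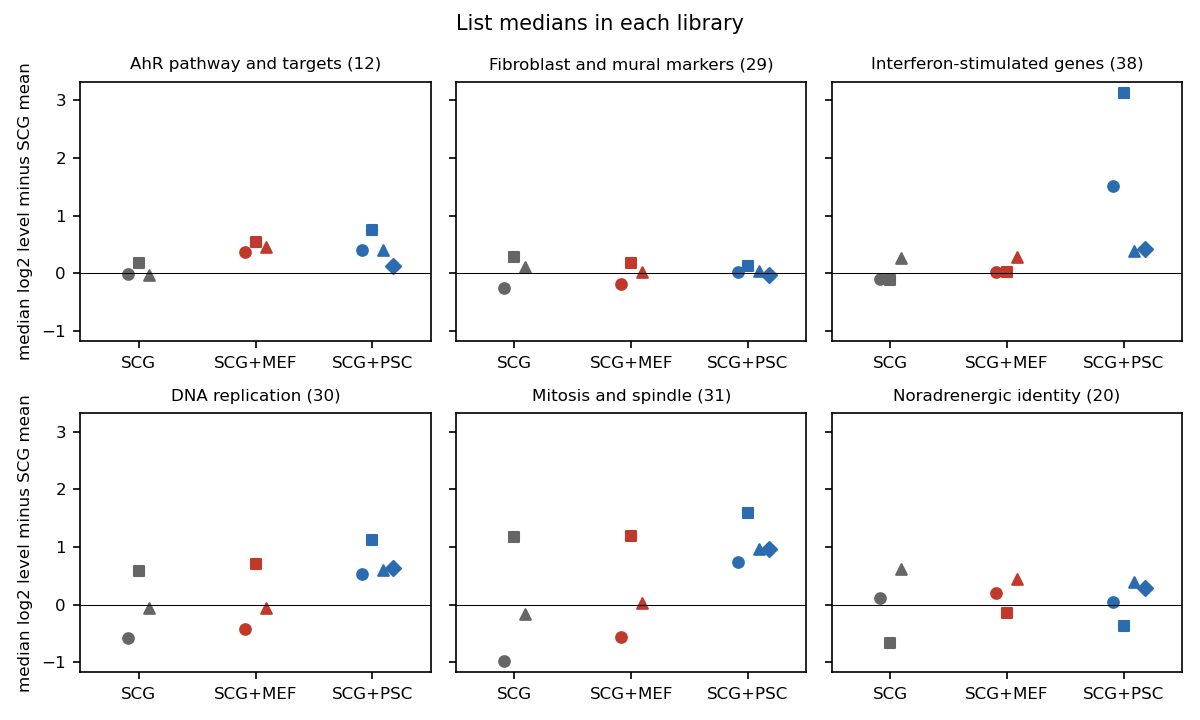
Median over the members of 6 gene lists of the log2 level minus the mean of the 3 SCG libraries, in each library of SCG (grey), SCG+MEF (red) and SCG+PSC (blue), with circle, square, triangle and diamond for replicates 1 to 4. The interferon list sits at 0.03, 0.02 and 0.27 in SCG+MEF and from 0.38 to 3.12 in SCG+PSC. The mitosis list differs more between replicates of SCG (-0.975 to 1.18) than between SCG and SCG+MEF of the same number.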

How the data were processed

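Normalized counts of the ganglion libraries were deposited by the authors in 1 table. They aligned the reads to GRCm39 with STAR (2.7.10b), counted them per gene and strand on GENCODE M33, and divided each library by its DESeq2 (1.38.3) size factor. The deposited values are thus a signal, not counts. Dividing each library by its smallest step gave back whole reads in 100% of values (within a millionth of their size) for the 9 ganglion libraries numbered 1 to 3, and these reads served for depth and for edgeR and DESeq2 only.

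Groups and replicate numbers came from the titles. The labels do not say that replicates were separate cultures, so p-values speak only for these libraries. In the blocked fit against SCG they measure the spread of the pair differences, with 2 residual degrees of freedom a gene. The total of 15.36 comes mostly from the variance of other genes, which limma shares between genes. limma (3.58.1, R 4.3.3) with a mean trend was fitted to log2(normalized count + 1) of genes of all types summing to at least 10. In the comparison with SCG the replicate number was the block. It stands in for the covariate of the study, which was the experimental batch given as dates. Benjamini-Hochberg adjustment ran over the 22313 genes tested. The smallest p an exact test of 3 pairs allows is 0.25, so single genes were tested in this fit only. The labels give the replicate numbers and no date. They were taken to pair the libraries because the deviations of same-numbered libraries from their group means went together across genes. Pearson r was 0.285, 0.350 and 0.414 between SCG and SCG+MEF, and 0.153, 0.225 and 0.155 between SCG+MEF and SCG+PSC. Differently numbered libraries had r below 0. Deviations from a mean of 3 libraries push these r below 0 on average once same-numbered libraries go together, so they add no support. edgeR (4.0.16) and DESeq2 (1.42.0), other pseudocounts, filters and scalings and left-out libraries were alternatives. The tests were checked on simulated data.

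Named genes were the 15 that the study named, up to 12 per direction with the largest log2 fold change among those called (same sign in 3 pairs, mean of at least 10), and, per list, the 3 smallest p-values and the highest mean. Of the genes named beyond these, Cxcl3, Cspg4, Pdgfra, Adamts15, the 17 genes called against SCG+PSC and listed markers with no call were chosen after their values were seen. The members and gene lists were chosen with earlier results of these data known. Positions are from GENCODE M39, and upstream sequence from RefSeq starts (GRCm38.p6) matched to GRCm39. The table of PSC libraries was not used here.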

Additional observations from a re-analysis of the deposited data

Results flagged for a closer look

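Outside the protein-coding genes, 6730 genes of other types were tested in the same fit, and 1 was higher in SCG+MEF. Gm43719, a transcript whose GENCODE type (TEC) marks it as awaiting experimental proof, was at 1.01, 1.90 and 0 normalized counts in SCG and at 22.3, 22.8 and 13.2 in SCG+MEF (mean 19.4), and at 9.59, 2.03, 13.9 and 11.1 in SCG+PSC. All 3 SCG+MEF libraries stood above the SCG libraries, whose counts are too few for a fold change to be given.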

How the results depend on the processing

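The number of genes called depended on the replicate block and on the filter. Without the block, limma called 1 higher and 0 lower gene against SCG, edgeR 1 and 0, DESeq2 13 and 2, and the model of 9 libraries 3 and 0. With the block but no filter on low values it called 5 and 0 of 17369 genes. With the block, the other pseudocounts, filter, scaling, adjustment and tools gave 54 to 91 higher and 29 to 44 lower. Fits that left out a pair or a library gave 0 to 100 higher and 0 to 50 lower, with 50 lower when pair 1 was left out and 0 in both directions when a single library was left out without the block (150 to 250 higher and 100 to 161 lower at an unadjusted p under 0.05). Against SCG+PSC the replicate block gave 29 higher and 152 lower, and each other alternative gave 0 and 0.

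Of the 92 genes named in the report 73 were past the threshold, 58 of them also under each alternative that kept the block, the filter on low values and all 3 pairs. Leaving out pair 1, 2 or 3 ended 19, 15 and 22 of the 73 calls. Nppc, Cxcl3, Egfl7 and Abca8b lost theirs in all 3 of these fits. The sign changed for 6 genes with no call. In fits with a pair or library left out, Ahr was at -0.011, Nqo1 at 0.011, 0.052, 0.063 and 0.10, Csf3r at 0.046, 0.14 and 0.20, Dbh at -0.13 and -0.019, Col1a1 at -0.18, -0.033 and -0.031, and Acta2 at -0.68, -0.17 and -0.13. Acta2 was also at -0.071 with edgeR and -0.062 with DESeq2, both without the block. The median of the chemokine list was 0.20 with a pseudocount of 8, and of complement 0.25. The cause of these changes was not tested. Depth, 33501312 reads or more a library, leaves genes at a few normalized counts imprecise.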

Other observations

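Of the 6730 genes of other types, 1 was lower in SCG+MEF. Morrbid, a long noncoding RNA known for its action on the neighbouring gene Bcl2l11 in myeloid cells, was at 367, 791 and 475 normalized counts in SCG and 240.3, 499 and 341 in SCG+MEF, lower in every pair although the groups overlapped.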
